A study of Rattus norvegicus with 20 samples.

Results

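The 153 probe sets described here report the RNA of 136 solute carrier genes in rat liver. They were chosen by name and by signal. The gene symbol begins with Slc and a digit, the probe set is annotated to that 1 gene, and its mean log2 signal over all 20 arrays lies in the upper 60% of 15866 probe sets, which left 9520 probe sets tested. The array carries 281 such probe sets for 228 solute carrier genes. Of these, 118 probe sets lay under the signal limit, and 82 genes had none above it. Another 10 probe sets for 10 genes (Slc6a6, Slc3a2, Slc38a2, Slc34a2, Slc2a2, Slc37a4, Slc27a2, Slc10a1, Slc25a15 and Slc25a20) were left out by name, so no count below is a count over all solute carriers of liver. The rule itself uses names and the mean over all arrays, and it was set with earlier results of these data known. The lowest mean signal tested was 11.7 units (3.54 on the log2 scale). Slc35a2, Slc25a27 and Slc24a3 lay just inside, with mean log2 signals of 3.55, 3.58 and 3.64, and Slc38a1, Slc4a1 and Slc7a10 just outside, with 3.54, 3.54 and 3.49. All members stayed above this limit in every pool except 29, which had at least 1 pool under it. Slc7a6os was taken in by its symbol, although it names a gene opposite Slc7a6 and not a carrier.

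Livers came from male Wistar rats, an outbred laboratory strain, given their full diet (control) or a diet reduced by 5, 10, 20 or 30% for 1 week or 1 month. Restricted feeding is described as given to rats of 6 weeks of age, and the sample labels give 6 weeks for the 1 week arrays and 9 weeks for the 1 month arrays without saying at which point of the study. Every rat, control rats included, went without food for 16 h before liver removal, so each comparison is between diets after the same fast. RNA of 5 rats was pooled for each diet and duration, and each of the 10 pools was measured on 2 Affymetrix arrays. Each condition therefore had 1 pool (n = 10 pools in every fit). The 2 arrays of a pool repeat the measurement of 1 RNA, and the p-values rest on how far pools departed from a fitted line or step, not on the spread between rats. The precision is limited by the number of pools.

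Solute carriers are membrane proteins that move metabolites, ions, metals and vitamins across the plasma membrane or organelle membranes, either down a gradient or coupled to another ion. In hepatocytes they take up bile acids, amino acids, sugars and carnitine from the blood, return products to it, and exchange citrate, dicarboxylates, nucleotides and cofactors across the inner mitochondrial membrane. Several link mitochondria with cytosolic pathways: the citrate carrier supplies the acetyl units from which fatty acids are made, and the carnitine transporter supplies the carrier molecule that fatty acids need to enter mitochondria.

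Hepatocyte markers (5 of 6 listed genes were on the array, all tested) had a summed signal of 28411 to 28958 in the control pools and 27263 to 29489 in the restricted pools. Markers of skeletal muscle, kidney and pancreas lay under the signal limit (6 of 6 genes), with sums of 15.4 in both control pools and 17 to 30.2 in the restricted pools. Endothelial markers (4 genes on the array, Vwf under the limit) summed to 184 to 224 in control pools and 246 to 292 in restricted pools, so every restricted pool was higher, and Kdr, a receptor of vascular endothelium, rose by 0.60 ± 0.108 in the comparison of restricted with control pools (limma adjusted p = 0.00899). Bile duct markers (4 genes, Krt7, Krt19 and Spp1 under the limit) summed to 66.5 to 77.0 in control pools and 42.8 to 59.9 in restricted pools, so every restricted pool was lower. Stellate cell and fibroblast markers (8 genes) overlapped, with 411 to 547 against 384 to 616, as did red blood cell markers (3 genes, Slc4a1 under the limit), with 1187 to 2120 against 1010 to 1882. The part of these other cells in the results on solute carriers was not tested. In whole liver, fewer cells of a type and less RNA per cell cannot be told apart. In log2 units, paired arrays of 1 RNA had a median SD of 0.230 for the members and 0.236 for all tested probe sets.

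Across both durations, 7 member probe sets rose and 2 fell with increasing restriction, and 144 did not pass (limma, adjusted p under 0.05 over all tested probe sets). The slope is given as the log2 change in signal over 30 percentage points of restriction, with duration in the fit. The 9 calls, in 8 genes, are 5.88% of the members, beside 3.76% of all tested probe sets. By direction, 4.58% of the members rose and 1.31% fell, beside 1.8% and 1.96% of all. The median slope was 0.06 for the members and 0.00 for all, and 37 members had an unadjusted p under 0.05 (24.2%, beside 19% of all). With the restricted pools compared with the controls as 1 step, 11 members rose, 2 fell and 140 did not pass. These 13 calls, in 12 genes, are 8.5% of the members, beside 5.27% of all tested probe sets. Here 7.19% rose and 1.31% fell, beside 3.16% and 2.11% of all, and the median difference was 0.12 for the members and 0.00 for all. Of the 153 members, 92 lay above 0 in the step (60.1%, beside 50.3% of all). An unadjusted p under 0.05 in the step was found for 43 members (28.1%, beside 18.9% of all). The dose trend and the step use the same pools, so they are not separate evidence.

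**Figure D1:**
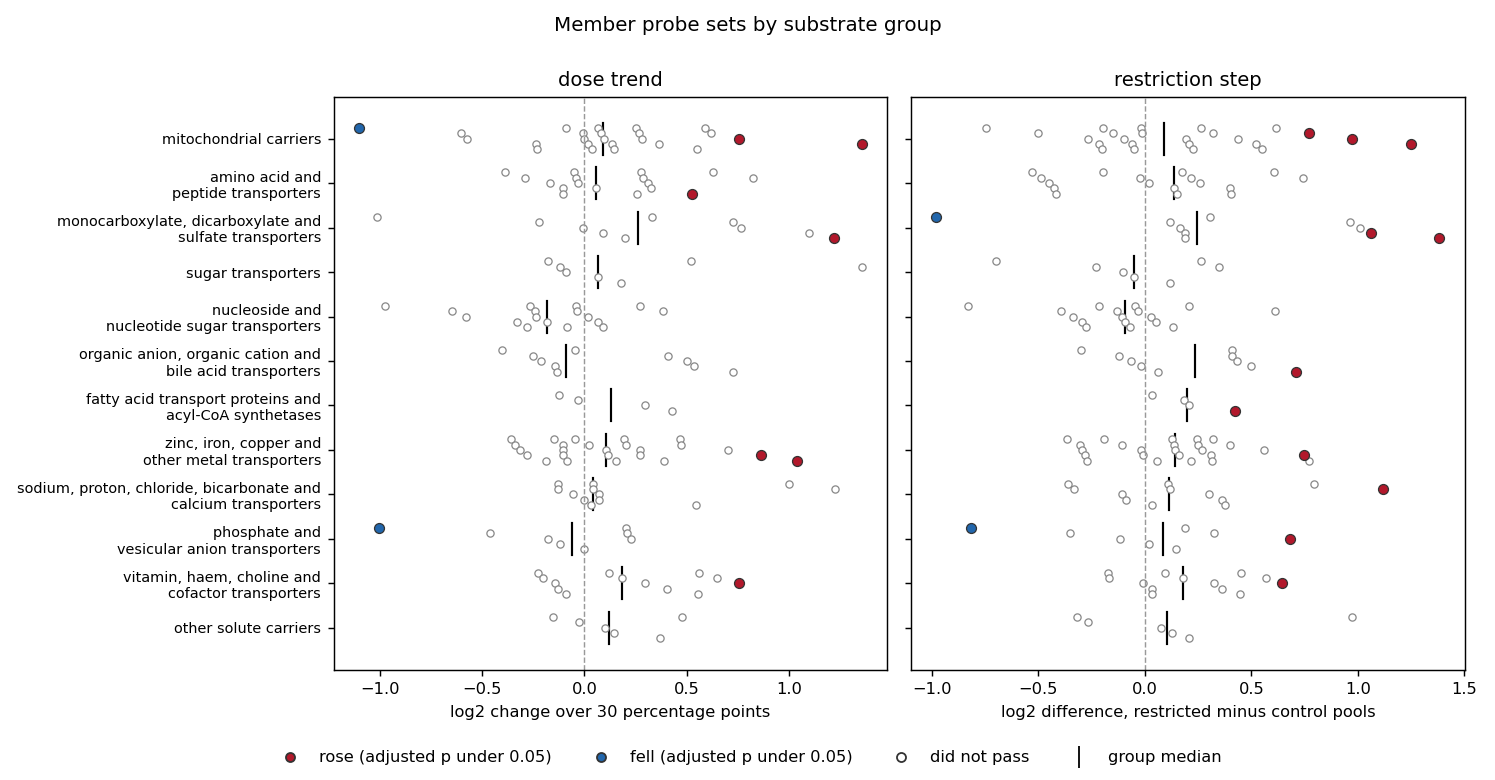
Each point is 1 member probe set, placed by its log2 change over 30 percentage points of restriction (left) or its log2 difference between restricted and control pools (right), in 12 groups by substrate. Filled points passed an adjusted p of 0.05, and the black bars are group medians. The 9 filled points on the left and the 13 on the right are spread over several groups rather than gathered in 1. The sugar, nucleoside and other solute carrier groups have none in either panel. The organic anion, fatty acid and sodium groups have none on the left, and the amino acid group has none on the right.

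Among 24 probe sets of 23 mitochondrial carriers, the inner membrane exchangers of the Slc25 family, 2 rose and 1 fell in the dose trend, and 3 rose and 0 fell in the step. The group medians were 0.09 in both. Slc25a1, the citrate carrier, had a normalized signal of 426 in the control pool at 1 week and of 350, 328, 208 and 208 at 5, 10, 20 and 30% restriction. At 1 month its signal was 446 in the control pool and 298, 295, 264 and 180 in the restricted pools. All 8 restricted pools lay below both control pools, and the lowest pools were those at the higher levels of restriction. The fitted log2 signal of Slc25a1 fell by 1.10 ± 0.131 (SE) from 0 to 30% restriction, or 2.15-fold (limma adjusted p = 0.00248). Its slope was -1.11 ± 0.194 at 1 week (adjusted p = 0.0361) and -1.09 ± 0.194 at 1 month (adjusted p = 0.0898), with a difference between the slopes of 0.02 ± 0.274. As a step its difference was -0.75 ± 0.217 and did not pass (adjusted p = 0.0675). Without any 1 of the 10 pools its dose trend still passed. Its slope at 1 week did not pass without the control, 5, 10, 20 or 30% pool at 1 week (adjusted p = 0.202, 0.108, 0.06, 0.0834 and 0.137) or without the 20% pool at 1 month (0.0578).

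Slc25a33, a carrier of pyrimidine nucleotides into mitochondria, had the steepest rise among the members that passed in the dose trend. Its signal at 1 week was 21 in the control pool and 35.6, 45, 67.0 and 69.9 in the pools at 5 to 30% restriction. At 1 month it was 26.9 in the control pool and 49.6, 68.2, 55.6 and 72.5. All restricted pools lay above both controls, already at 5% restriction. It rose by 1.36 ± 0.272 over 30 percentage points, a 2.56-fold higher signal (adjusted p = 0.0207), and by 1.25 ± 0.229 in the step (2.38-fold, adjusted p = 0.0102). The dose trend did not pass without the control pool at 1 week, the 30% pool at 1 week or the control pool at 1 month (adjusted p = 0.0662, 0.0825 and 0.0801), and the step did not pass without either control pool (0.121 and 0.118). Slc25a22, a mitochondrial glutamate carrier, had signals of 337, 361, 357, 366 and 596 at 1 week and of 289, 391, 515, 530 and 540 at 1 month, in order of restriction from the control. At 1 week only the 30% pool stood apart, while at 1 month the pools at 10% and above were close together. It rose by 0.76 ± 0.159 (1.69-fold, adjusted p = 0.0253). The trend did not pass without the control or 30% pool at 1 week (adjusted p = 0.0525 and 0.14) or without the control or 20% pool at 1 month (0.0886 and 0.0553).

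A pair of carriers of this family passed in the step and not in the dose trend. Slc25a42, which carries coenzyme A, had signals of 43.8, 62.1, 99.1, 92.0 and 99.8 at 1 week and of 47.6, 111, 106, 90.0 and 69.9 at 1 month. Slc25a10, the dicarboxylate carrier, had signals of 218, 259, 384, 430 and 431 at 1 week and of 241, 449, 504, 414 and 321 at 1 month. Both genes were higher in all 8 restricted pools than in either control. At 1 month both were highest at 5 or 10% restriction and lower again at 30%. Slc25a42 rose by 0.97 ± 0.192 (1.96-fold, adjusted p = 0.0138) and Slc25a10 by 0.77 ± 0.183 (1.71-fold, adjusted p = 0.0284). Without the control pool at 1 week or at 1 month neither passed, with adjusted p = 0.132 and 0.169 for Slc25a42 and 0.211 and 0.257 for Slc25a10, which also missed without the 20% pool at 1 month (0.0519).

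Other mitochondrial carriers did not pass in either comparison. Slc25a5, an adenine nucleotide exchanger, had a slope of 0.14 ± 0.102 (adjusted p = 0.524). Slc25a13, the aspartate and glutamate exchanger, had a step of 0.23 ± 0.0932 (adjusted p = 0.204), and Slc25a25, the ATP-Mg and phosphate carrier, of 0.19 ± 0.142 (adjusted p = 0.51). Slc25a30 differed most between durations of all members by p: its control pools were at 318 (1 week) and 98.7 (1 month), and its difference between durations was -1.22 ± 0.289 with an adjusted p of 0.113. Its restricted pools ranged from 210 to 441 at 1 week and from 90.4 to 298 at 1 month, so the ranges overlapped.

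**Figure D2:**
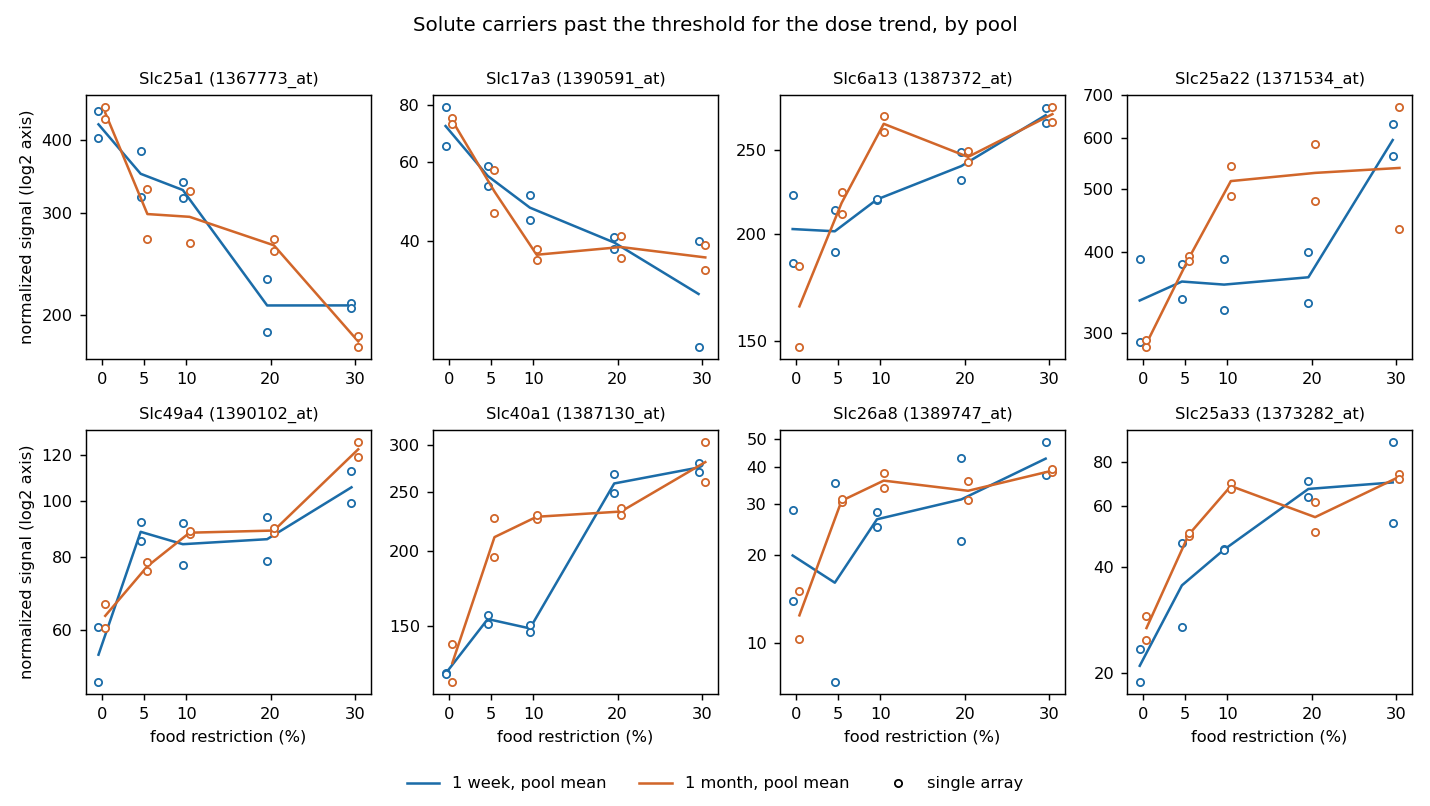
Normalized signal (log2 axis) against percent restriction for 1 probe set of each of the 8 genes that passed in the dose trend. Lines join pool means at 1 week (blue) and 1 month (orange), and open circles are single arrays. Slc25a1 and Slc17a3 lie lower at every restricted level than in the control pools, and Slc25a33, Slc40a1 and Slc49a4 higher, while the arrays of Slc26a8 at 5% restriction for 1 week lie far apart at 35.3 and 7.36.

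Of 10 probe sets of 9 monocarboxylate, dicarboxylate and sulfate transporters, 1 rose and 0 fell in the dose trend, and 2 rose and 1 fell in the step. Slc16a12, which moves creatine across the plasma membrane, has 2 member probe sets and both rose in the step. Probe set 1393516_at had signals of 65.5, 112, 163, 206 and 188 at 1 week and of 57.1, 155, 177, 158 and 136 at 1 month. Restricted pools were all above both controls, and most of the difference was present at 5% restriction at 1 month and at 10% at 1 week. It rose by 1.38 ± 0.181 in the step, a 2.61-fold higher signal (95% interval 0.99 to 1.77 on the log2 scale, adjusted p = 0.00168). Probe set 1390530_at had signals of 84.2, 118, 180, 182 and 165 at 1 week and of 66.3, 185, 147, 142 and 141 at 1 month. It rose by 1.06 ± 0.161 (2.08-fold, adjusted p = 0.00347). Without the control pool at 1 month neither Slc16a12 probe set passed (adjusted p = 0.0525 and 0.113), and without the control pool at 1 week both did. Neither passed in the dose trend (slopes of 1.10 ± 0.37 and 0.73 ± 0.322, adjusted p = 0.126 and 0.246).

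Slc16a1, the monocarboxylate transporter for lactate, pyruvate and ketone bodies, was lower in all 8 restricted pools than in either control. Its signal was 334, 246, 201, 127 and 107 at 1 week, lower at each higher level. At 1 month it was 284 in the control pool and 150, 136, 142 and 181 in the restricted pools, lowest at 10% and higher again at 30%. In the step it fell by 0.98 ± 0.239, a 1.97-fold lower signal (adjusted p = 0.0318). The dose trend of -1.01 ± 0.294 did not pass (adjusted p = 0.0783), nor did the slope at 1 week of -1.65 ± 0.342 (adjusted p = 0.0588). The slope at 1 month was -0.38 ± 0.342, and the difference between the slopes was 1.27 ± 0.484 with an adjusted p of 0.903. Without the control pool at 1 month that difference was 2.01 and passed (adjusted p = 0.047). The step did not pass without the control pool at 1 week (adjusted p = 0.266) or at 1 month (0.231), without the 20% pool at 1 week (0.0502), or without the 10 or 20% pool at 1 month (both 0.0577).

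Slc26a8, an anion transporter known mainly from testis, had signals of 20.0, 16.1, 26.5, 31 and 42.7 at 1 week and of 12.5, 30.7, 36, 33.2 and 38.9 at 1 month. The arrays of its 5% pool at 1 week read 35.3 and 7.36, and its SD between paired arrays was 0.617 in log2 units, so this is a dim and noisy member. It rose by 1.22 ± 0.297 in the dose trend (2.33-fold, adjusted p = 0.0448), and by 1.12 with single signals under the limit raised to it. It did not pass without any of 8 of the 10 pools in turn: the control, 5, 10, 20 and 30% pools at 1 week (adjusted p = 0.0852, 0.0777, 0.0562, 0.0833 and 0.156) and the control, 20 and 30% pools at 1 month (0.118, 0.0773 and 0.0557). Slc26a1, a sulfate transporter, had a step of 0.12 ± 0.112 (adjusted p = 0.618).

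**Figure D3:**
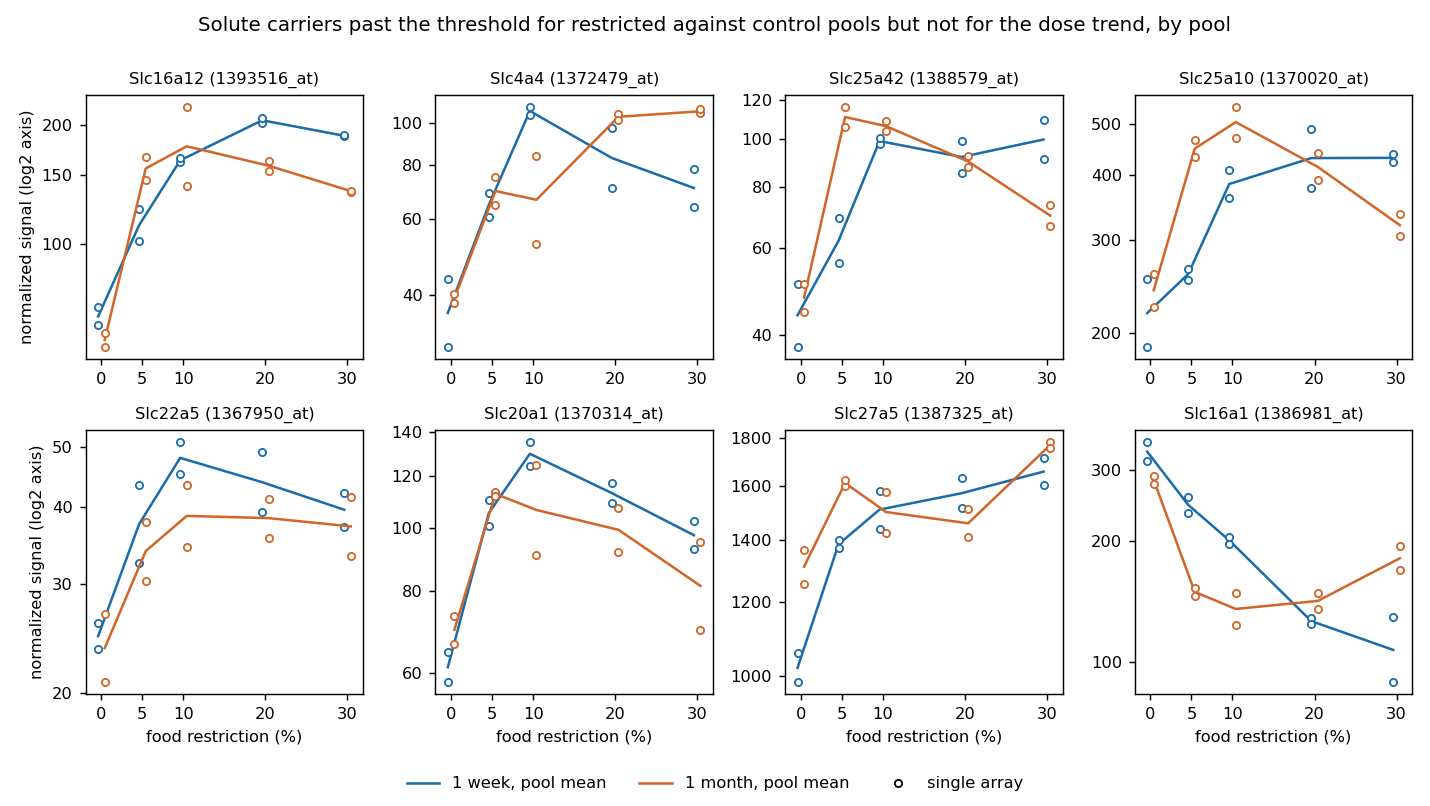
Normalized signal (log2 axis) against percent restriction for 1 probe set of each of the 8 genes that passed for restricted against control pools and not for the dose trend. Lines join pool means at 1 week (blue) and 1 month (orange), and open circles are single arrays. Slc16a12, Slc25a42 and Slc20a1 stand well above the control pools at 5 to 10% restriction and do not climb on to 30% at 1 month, and Slc16a1 lies below the control pools at every level.

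Zinc, iron, copper and other metal transporters comprised 25 probe sets of 20 genes. Of these probe sets, 2 rose and 0 fell in the dose trend, and 1 rose and 0 fell in the step. Slc40a1, ferroportin, the only known exporter of iron from cells, was the 1 gene of this group to pass. Probe set 1387130_at had signals of 125, 154, 149, 259 and 275 at 1 week and of 130, 211, 228, 232 and 281 at 1 month. All restricted pools lay above both controls, with a jump between 10 and 20% at 1 week and between 0 and 5% at 1 month. It rose by 1.04 ± 0.167 over 30 percentage points (2.06-fold, adjusted p = 0.00886), and by 1.22 ± 0.235 in the slope at 1 week (adjusted p = 0.0454). Its step of 0.77 ± 0.209 did not pass (adjusted p = 0.0522). Probe set 1390412_at had signals of 130, 158, 156, 267 and 246 at 1 week and of 129, 225, 231, 234 and 251 at 1 month, nearly the same course. It rose by 0.86 ± 0.192 in the dose trend (adjusted p = 0.0317) and by 0.75 ± 0.18 in the step (adjusted p = 0.0299). The dimmer 1376972_at had a slope of 0.70 ± 0.195 (adjusted p = 0.0699) and a step of 0.56 ± 0.193 (adjusted p = 0.126), with 7 of 8 restricted pools above both controls.

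Ferroportin is also made by Kupffer cells, the macrophages of liver. Markers of Kupffer cells and other leukocytes (6 genes on the array, Ptprc and Cd3e under the limit) summed to 838 to 843 in the control pools and to 652 to 807 in the restricted pools. The sum, in which bright genes weigh most, was lower in all 8 restricted pools, while the 4 tested markers had a median slope of 0.12 and a median step of 0.04, and 0 of the 4 passed in either. Their part in the result on Slc40a1 was not tested. Without the 30% pool at 1 week the dose trend of probe set 1387130_at did not pass (adjusted p = 0.0524). The trend of 1390412_at did not pass without the control, 5, 20 or 30% pool at 1 week (adjusted p = 0.0971, 0.0588, 0.0538 and 0.108) or without the control or 20% pool at 1 month (0.113 and 0.0601). The step of 1390412_at did not pass without either control pool (0.143 at 1 week and 0.343 at 1 month) or without the 10 or 20% pool at 1 month (0.0533 and 0.0548). The slope of 1387130_at at 1 week was lost without any 1 of the 5 pools at 1 week (adjusted p = 0.224, 0.116, 0.0675, 0.119 and 0.194 in order of restriction) and without the 10, 20 or 30% pool at 1 month (0.0506, 0.0785 and 0.055).

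Other metal transporters did not pass. Slc31a1, the high-affinity copper importer, had signals of 486, 529, 530, 605 and 582 at 1 week and of 454, 538, 538, 582 and 566 at 1 month in probe set 1388534_at, all restricted pools above both controls. Its slope of 0.27 ± 0.0834 had an adjusted p of 0.0944 and its step of 0.25 ± 0.0758 an adjusted p of 0.0813. Slc39a14, a zinc and iron importer, had a step of 0.31 ± 0.0997 (adjusted p = 0.102), again with all 8 restricted pools above both controls. Slc39a13, a zinc transporter, was among the members with the smallest p for the difference between slopes (0.83 ± 0.306, adjusted p = 0.903).

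Phosphate and vesicular anion transporters held 1 fall in each comparison and 1 rise in the step among 8 probe sets of 7 genes. Slc17a3, an organic anion and urate transporter, had signals of 71.9, 55.8, 47.4, 39.7 and 30.5 at 1 week and of 73.9, 51.5, 37.3, 38.8 and 36.8 at 1 month. At 1 week it was lower at each higher level, and at 1 month it was flat from 10% on. The arrays of the 30% pool at 1 week read 23.3 and 40. Slc17a3 fell by 1.00 ± 0.182 in the dose trend (2.00-fold lower, adjusted p = 0.0138) and by 0.81 ± 0.196 in the step (1.76-fold lower, adjusted p = 0.0299). The trend did not pass without the control or 30% pool at 1 week or the control pool at 1 month (adjusted p = 0.0527, 0.0795 and 0.0567). The step did not pass without the control or 20% pool at 1 week (0.196 and 0.0526) or without the control, 10 or 20% pool at 1 month (0.284, 0.0544 and 0.0557). Its relative Slc17a1 was also below both controls in all 8 restricted pools, with 149 and 140 in the controls and 96.5 to 137 in the restricted pools, but its slope of -0.46 ± 0.123 did not pass (adjusted p = 0.06). Slc20a1, a sodium-phosphate importer, had signals of 61.3, 105, 130, 113 and 97.4 at 1 week and of 69.8, 113, 106, 99.3 and 81.5 at 1 month. It was highest at 5 or 10% restriction at both durations and came back towards the control at 30%. It rose by 0.68 ± 0.142 in the step (1.60-fold, adjusted p = 0.0174), while its dose slope was 0.21 ± 0.262 (adjusted p = 0.739). The step did not pass without either control pool (adjusted p = 0.266 at 1 week and 0.0922 at 1 month).

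In the organic anion, organic cation and bile acid group, 1 of 10 probe sets rose in the step and 0 passed in the dose trend. In the dose trend 4 had an unadjusted p under 0.05, beside 19% of all tested probe sets. Slc22a5, the sodium-dependent carnitine transporter, had signals of 24.7, 37.5, 48, 43.8 and 39.6 at 1 week and of 23.6, 33.9, 38.7, 38.3 and 37.2 at 1 month. Every restricted pool was above both controls, and the levels from 10 to 30% were close together at 1 month. It rose by 0.71 ± 0.131 (1.63-fold, adjusted p = 0.0103), and did not pass without either control pool (adjusted p = 0.125 and 0.108). The organic anion transporters Slc22a7 and Slc22a8 had steps of -0.02 ± 0.0744 and -0.12 ± 0.133 (adjusted p = 0.935 and 0.686). Slc22a7 kept between 430 and 521 in all 10 pools. Slc22a18, an organic cation transporter, had a slope of -0.13 ± 0.0829 (adjusted p = 0.43). Slc22a17, a receptor for a lipocalin, and Slc22a23, an orphan member, had slopes of 0.53 ± 0.178 and 0.41 ± 0.14 (adjusted p = 0.123 and 0.132).

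Among the 4 members of the fatty acid transport protein family, which activate fatty acids to acyl-CoA, Slc27a5 rose in the step, and 0 passed in the dose trend. In the dose trend 1 of the 4 had an unadjusted p under 0.05, beside 19% of all tested probe sets. Slc27a5 conjugates bile acids to coenzyme A in hepatocytes. Its signals were 1020, 1384, 1508, 1570 and 1656 at 1 week and 1310, 1610, 1499, 1457 and 1768 at 1 month, so every restricted pool lay above both controls, the lowest of them close to the control pool at 1 month. It rose by 0.43 ± 0.0921 (1.34-fold, adjusted p = 0.0203). Without the control pool at 1 week the step was 0.27 and did not pass (adjusted p = 0.336), nor did it pass without the control pool at 1 month (0.0595). Its dose slope of 0.43 ± 0.118 did not pass (adjusted p = 0.0685).

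Of 17 probe sets of 15 amino acid and peptide transporters, 1 rose in the dose trend and 0 passed in the step. There 4 had an unadjusted p under 0.05 in the step, beside 18.9% of all tested probe sets. Slc6a13, a taurine and GABA transporter of the liver, had signals of 202, 201, 219, 240 and 275 at 1 week and of 165, 217, 268, 246 and 275 at 1 month. The 5% pool at 1 week lay below its control, and the other 7 restricted pools lay above both controls. It rose by 0.52 ± 0.125 (1.44-fold, adjusted p = 0.0409). The trend did not pass without the control, 5, 10, 20 or 30% pool at 1 week (adjusted p = 0.0799, 0.075, 0.0548, 0.072 and 0.132) or without the control, 20 or 30% pool at 1 month (0.125, 0.0713 and 0.0747). Slc38a3, a glutamine transporter, ranged from 541 to 825 at 1 week and from 518 to 841 at 1 month with the control lowest at each duration, and its step of 0.40 ± 0.13 did not pass (adjusted p = 0.102). Slc16a10, which carries aromatic amino acids, had a step of 0.74 ± 0.272 (adjusted p = 0.15), with 7 of 8 restricted pools above both controls. Slc38a4, a neutral amino acid transporter, had a slope of 0.28 ± 0.101 (adjusted p = 0.147). The cationic amino acid transporter Slc7a2 was dim, with 2 pools under the signal limit and a step of -0.45 ± 0.29 (adjusted p = 0.443).

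Slc4a4, the sodium bicarbonate cotransporter, was the 1 of 12 probe sets for sodium, proton, chloride, bicarbonate and calcium transporters to rise in the step. Probe set 1372479_at had signals of 36.4, 64.7, 107, 83.0 and 70.7 at 1 week and of 39.3, 69.6, 66.4, 103 and 106 at 1 month. At 1 week it was highest at 10% restriction and at 1 month at 20 and 30%, with every restricted pool above both controls. It rose by 1.12 ± 0.205 (2.17-fold, adjusted p = 0.0102), and did not pass without either control pool (adjusted p = 0.116 and 0.134). Its second probe set, 1369756_a_at, had 4 pools under the signal limit, an SD between arrays of 0.957 and a step of 0.79 ± 0.707 (adjusted p = 0.602). Slc12a9, of the cation-chloride cotransporter family, had slopes of -0.66 ± 0.321 at 1 week and 0.81 ± 0.321 at 1 month, and a difference of 1.47 ± 0.454 that did not pass (adjusted p = 0.903).

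In the vitamin, haem, choline and cofactor group, 1 of 13 probe sets rose in each comparison. Slc49a4, a protein of the lysosomal membrane also known as Dirc2, had signals of 54.4, 88.4, 84.2, 85.9 and 105 at 1 week and of 63.4, 77.1, 88.1, 88.9 and 123 at 1 month. It was higher in every restricted pool than in either control and highest at 30% at both durations. It rose by 0.76 ± 0.156 in the dose trend (1.69-fold, adjusted p = 0.0235) and by 0.64 ± 0.153 in the step (1.56-fold, adjusted p = 0.0288). The trend did not pass without the control or 30% pool at 1 week (adjusted p = 0.0738 and 0.0841) or at 1 month (0.0895 and 0.0749), and the step did not pass without either control pool (0.288 and 0.183). Slc33a1, which carries acetyl-CoA into the endoplasmic reticulum, had a slope of 0.40 ± 0.168 (adjusted p = 0.219), and Slc44a1, a choline transporter, a step of 0.57 ± 0.191 in its leading probe set (adjusted p = 0.114).

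Sugar transporters and nucleoside or nucleotide sugar transporters had 0 of 7 and 0 of 17 probe sets past the threshold in either comparison. Under an unadjusted p of 0.05 were 0 and 3 in the dose trend and 1 and 2 in the step. Of all tested probe sets, 19% were under it in the dose trend and 18.9% in the step. Slc2a1, a glucose transporter, was dim, with the 5% pools at 5.68 and 4.81 and both controls at 26.7 and 15.4. Its 30% pool at 1 month went the other way, higher than its control by a log2 difference of at least 1 with arrays not overlapping. Slc2a1 had the smallest p of the sugar group in the dose trend and did not pass. The slopes of that group ran from -0.18 to 1.35. Slc2a5, the fructose transporter, ranged from 41.1 to 81.2 over all pools, and its step was 0.35 ± 0.246 (adjusted p = 0.49). Slc45a3, a sugar transporter family member, was below both controls in all 8 restricted pools (47.8 and 48.4 against 22.2 to 41.3), with a step of -0.70 ± 0.192 that did not pass (adjusted p = 0.0554). Slc28a2, a purine nucleoside transporter, was also below both controls in all 8 (64.0 and 57.3 against 18.9 to 49.3), with a slope of -0.98 ± 0.33 (adjusted p = 0.127). Slc29a1, an equilibrative nucleoside transporter, had a step of -0.05 ± 0.118 (adjusted p = 0.881). The median slope of the 17 nucleoside and nucleotide sugar probe sets was -0.18, and 5 lay above 0. The 6 other members had 0 past the threshold (0 and 2 at an unadjusted p under 0.05 in the dose trend and the step), and among them Slc66a1, a lysosomal transporter of cationic amino acids, had a step of 0.97 ± 0.311 (adjusted p = 0.0968) with the control pool at 1 week under the signal limit.

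Calls in the dose trend and the step depended on the scaling between arrays and on the control pools. With the signals as deposited, which raised the median of all tested probe sets by 0.11 in the dose trend and by 0.25 in the step, 0 members passed in the dose trend and 14 rose with 0 falling in the step. With each array centred on its median, 1 member rose and 2 fell in the dose trend. All 9 and all 13 calls kept their sign under both scalings, which use the same arrays. The GAPDH 3′ over 5′ signal ratio, a measure of RNA integrity, was 1.51 and 1.52 in the control pools, ran from 1.30 to 1.61 over all pools and was lowest in the 30% pool at 1 month. The beta-actin ratio was 2.73 and 2.72 in the control pools and lowest, at 2.23 and 2.28, in both 30% pools. The part of RNA integrity in the results was not tested beyond the fits that follow. With the GAPDH ratio in the fit 0 members passed in the dose trend (29 with an unadjusted p under 0.05) and 10 in the step. The 9 slopes kept their sign there and were close to or above their reported size, for example -1.13 ± 0.26 for Slc17a3, 1.37 ± 0.396 for Slc25a33 and 1.07 ± 0.242 for Slc40a1 (1387130_at), with larger SEs. With the actin ratio 1 passed in the dose trend, Slc25a1 (adjusted p = 0.0391), and 17 in the step. Without the control pool at 1 week 2 members passed in each comparison, and without the control pool at 1 month 2 passed in the dose trend and 3 in the step, of which 0 were among the 13. Without the 30% pool at 1 week or the 20% pool at 1 month, 1 and 5 passed in the dose trend, and without the 5% pool at 1 week 26 passed in the step.

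When the slope was fitted at each duration separately, at 1 week 2 members passed (1.31%, beside 0.714% of all tested probe sets), Slc25a1 and Slc40a1, with 36 at an unadjusted p under 0.05 (23.5%, beside 15.9%). At 1 month 0 members passed by limma (0.0315% of all did), with 20 at an unadjusted p under 0.05 (13.1%, beside 10.5%). The difference between the slopes passed for 0 members and for 0% of all, with 14 members at an unadjusted p under 0.05 (9.15%, beside 5.51%), so no difference in slope between durations was detected. All 9 calls of the dose trend had the same sign of slope at both durations. They were chosen by their slope over both durations, so this is not separate evidence. Among the 153 members 95 had the same sign at both, and the share over all tested probe sets was not counted. Slc6a9, a glycine transporter, had slopes of 0.80 ± 0.204 at 1 week and -0.18 ± 0.204 at 1 month in probe set 1387693_a_at (difference -0.98 ± 0.289, adjusted p = 0.903). The member probe sets of Slc6a9 differed in sign in the dose trend over both durations. The slope was 0.31 ± 0.198 in 1387693_a_at, -0.11 ± 0.162 in 1373787_at and -0.05 ± 0.238 in 1369772_at. None of them passed (limma adjusted p = 0.445, 0.793 and 0.939). In probe set 1372747_at, the phosphate importer Slc20a2 had slopes of 0.20 ± 0.186 at 1 week and -0.56 ± 0.186 at 1 month. The 2 member probe sets of Slc20a2 differed in sign in the dose trend over both durations. The slope was -0.18 ± 0.168 in 1372747_at and 0.23 ± 0.155 in 1369234_at, and neither passed (limma adjusted p = 0.623 and 0.475). Leaving out the control, 5, 10, 20 or 30% pool at 1 week, or the 20% pool at 1 month, left 0 members in the slope at 1 week, leaving out the 10% pool at 1 month left 1, and leaving out the control pool at 1 month gave 11.

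Between 1 month and 1 week, with restriction in the fit, 0 members passed (0.336% of all did), and 14 had an unadjusted p under 0.05 (9.15%, beside 10.7%). Duration changes together with age and with any processing of the pools by duration, and these cannot be told apart. After Slc25a30, the smallest p-values belonged to Slc25a25 (0.47 ± 0.121, adjusted p = 0.146), the dicarboxylate and sulfate transporters Slc13a3 and Slc13a4 (-0.52 ± 0.137 and -0.52 ± 0.135, both with adjusted p = 0.155), and, after Slc35e1, the organic anion transporter Slc22a8 (-0.35 ± 0.0976, adjusted p = 0.188).

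Each restricted pool was also set against the control pool of its own duration by size alone, with no test: the log2 difference had to reach 1 in either direction, and the arrays of the pools compared were not to overlap. At 1 week 11, 12, 15 and 14 members met this at 5, 10, 20 and 30% restriction, beside 3.78%, 3.62%, 4.93% and 5.87% of all tested probe sets, and the members' own shares were 7.19%, 7.84%, 9.8% and 9.15%. At 1 month 11, 16, 11 and 14 members met it (7.19%, 10.5%, 7.19% and 9.15%), beside 5.62%, 5.96%, 4.72% and 4.96% of all. In all, 46 members (30.1%) met it in at least 1 pool, beside 17.8% of all tested probe sets, and 4 of them in both directions in different pools. Slc16a12 met it as a rise in 7 and 6 of 8 pools in its probe sets, Slc25a33 in 6, and Slc25a42 and Slc26a8 in 5. As a fall, Slc25a1, Slc16a1 and Slc28a2 met it in 3 pools each. The 4 pools of a duration share their control: probe set 1389678_at of Slc25a48, an orphan mitochondrial carrier, met it as a rise in 3 pools at 1 week, where its control pool read 17.4 and the other 9 pools read 29.4 to 45.2. All 8 restricted pools lay above both controls for 21 members (13.7%, beside 7.55% of all tested probe sets). They lay below both for 9 members (5.88%, beside 6.75% of all).

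Genes with several member probe sets give a check within the array. Of 12 such genes, 8 had the same sign in all their probe sets in the dose trend, and 8 in the step. The call differed between probe sets for Slc40a1 in the dose trend and for Slc40a1 and Slc4a4 in the step. Signs differed, for example, in Slc11a2, an iron importer, with steps of -0.29 ± 0.127 and 0.32 ± 0.178, neither of which passed (adjusted p = 0.233 and 0.361).

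**Figure D4:**
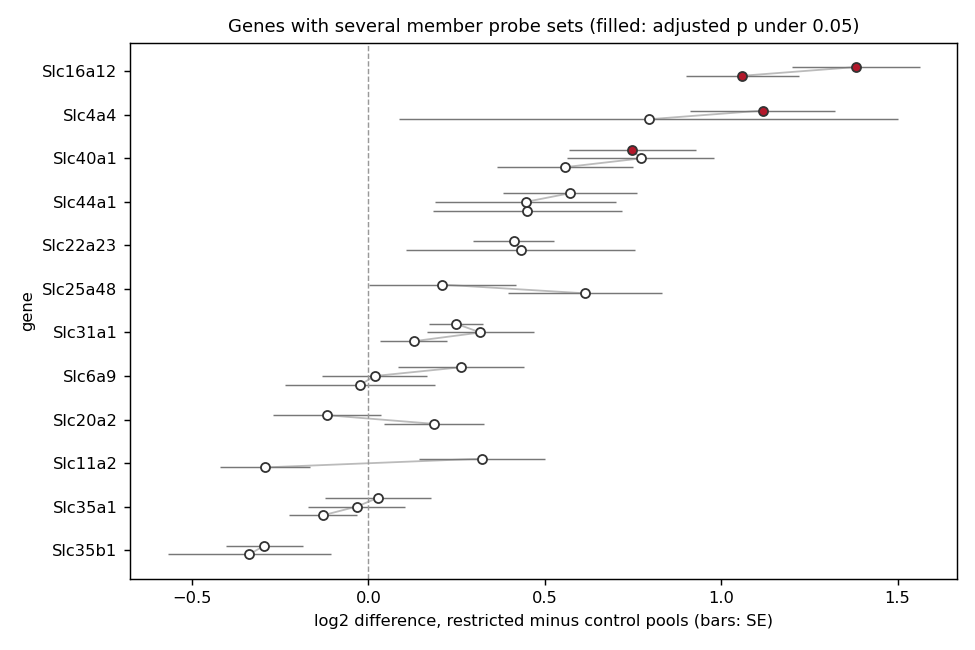
The log2 difference between restricted and control pools (points, with SE bars) for each probe set of the 12 genes that have several. Both probe sets of Slc16a12 lie near 1.06 to 1.38, those of Slc40a1 between 0.56 and 0.77, and those of Slc11a2 on opposite sides of 0.

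Other membrane transport genes, listed by symbol, were counted in the same fits, each by its probe set of highest mean signal. Of 13 tested ABC transporters, which use ATP to move their substrates across membranes, 1 rose and 2 fell in the dose trend. An unadjusted p under 0.05 was found for 5 of the 13 in the dose trend and 6 in the step. Of all tested probe sets, 19% and 18.9% were under it. Abcg8, a subunit of the sterol exporter, rose by 1.29 ± 0.31 (adjusted p = 0.0422), and Abcb11, the bile salt export pump, and Abcc2, which exports conjugates into bile, fell by 0.48 ± 0.112 and 0.76 ± 0.119 (adjusted p = 0.0374 and 0.00734). In the step 2 rose and 0 fell, with Abcg5, the partner of Abcg8, at 2.21 ± 0.307 (adjusted p = 0.00235) and Abcb1a at 1.14 ± 0.279 (adjusted p = 0.0326). Of 3 tested aquaporins, Aqp8, a water channel, fell by 1.12 ± 0.161 in the step (adjusted p = 0.00238) and by 1.09 ± 0.252 in the dose trend (adjusted p = 0.0364), while Aqp9, which takes up glycerol, rose by 0.49 ± 0.0923 in the step (adjusted p = 0.0109). Of the 6 organic anion transporting polypeptides and the 6 ion pumps tested, 0 passed in either comparison by limma, with 1 and 0 at an unadjusted p under 0.05 in the dose trend and 0 and 0 in the step.

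Members that passed in either direction were described by sequence as well. The 250 bases before the start of each gene were searched for 10 short motifs, on both strands, using the promoters given by RefSeq for build GRCr8. The files name no genome build for the array, and genes were matched by Entrez gene identifier. This found 117 of the 136 member genes and 14 of the 16 genes that passed in either comparison. The E-box CACGTG, a motif bound by clock and other basic helix-loop-helix factors, occurred in 15 of the 117 matched member genes (12.8%). It occurred in 5.59% of all 33469 promoters. For every motif the member share counts genes with a match in any promoter of the gene, and the other share counts single promoters. The shares are therefore in unlike units, and their difference was not tested. It occurred in 2 of 11 matched genes that rose and in 2 of 3 that fell. These 4 promoters are shown because rising and falling carriers both hold the motif. Each reads 5′ to 3′ on the strand of its gene and ends at the base before the start, with the E-box in capitals. They lie at chr2:194812410-194812659 on the plus strand (Slc16a1), chr17:41723110-41723359 on the minus strand (Slc17a3), chr5:165502974-165503223 on the minus strand (Slc25a33) and chr11:78500710-78500959 on the plus strand (Slc49a4).
Slc16a1: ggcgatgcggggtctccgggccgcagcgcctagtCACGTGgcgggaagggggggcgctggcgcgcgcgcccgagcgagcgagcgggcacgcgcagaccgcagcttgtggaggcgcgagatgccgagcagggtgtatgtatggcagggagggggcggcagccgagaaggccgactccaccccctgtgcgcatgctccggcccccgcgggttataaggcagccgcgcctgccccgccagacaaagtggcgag
Slc17a3: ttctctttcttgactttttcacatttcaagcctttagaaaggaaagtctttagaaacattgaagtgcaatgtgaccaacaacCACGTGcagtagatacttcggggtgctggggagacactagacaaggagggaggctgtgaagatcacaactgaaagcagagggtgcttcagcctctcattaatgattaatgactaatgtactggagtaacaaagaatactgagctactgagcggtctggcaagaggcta
Slc25a33: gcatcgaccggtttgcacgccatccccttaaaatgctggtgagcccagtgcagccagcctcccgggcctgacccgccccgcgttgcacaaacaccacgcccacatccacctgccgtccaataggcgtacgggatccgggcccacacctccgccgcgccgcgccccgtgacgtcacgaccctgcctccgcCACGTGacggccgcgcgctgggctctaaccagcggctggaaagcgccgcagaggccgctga
Slc49a4: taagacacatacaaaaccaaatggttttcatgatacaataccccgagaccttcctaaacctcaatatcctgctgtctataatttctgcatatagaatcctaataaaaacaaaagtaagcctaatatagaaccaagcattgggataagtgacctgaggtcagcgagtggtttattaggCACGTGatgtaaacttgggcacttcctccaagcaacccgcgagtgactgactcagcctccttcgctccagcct
The E-box lies at bases -216 to -211 in Slc16a1, -168 to -163 in Slc17a3, -61 to -56 in Slc25a33 and -73 to -68 in Slc49a4, counted from the start. A match is a description of these letters and not of a bound site.

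The other motifs were the D-box forms TTATGTAA and TTACGTAA (0.828% and 0.108% of all promoters), the sterol element core TCACCCCAC (0.409%), the DR1 element, searched as AGGTCA repeated after a gap of 1 base (0.0508%) and the forkhead motif GTAAACA (3.21%), each in 0 of the 117 matched member genes. The metal response core TGCGCNC occurred in 33 member genes (28.2%, beside 11.8% of all promoters), the antioxidant response core TGACNNNGC in 24 (20.5%, beside 10.1%), CCAAT in 51 (43.6%, beside 34%) and TATAAA in 8 (6.84%, beside 12.9%). The E-box of Slc16a1 overlaps a TGACNNNGC match at -223 to -215 on the opposite strand.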

How the data were processed

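The deposited values are MAS5 signal intensities of Affymetrix arrays, per the submitters' processing notes (version and scaling not given in the sources used here), made from 10 ug of pooled RNA per the labels' protocols. The authors' intensities were taken to log2 (each of 32 zeros took the lowest value above 0 on that array), quantile normalized over 15923 probe sets, and 57 control probe sets were dropped. The 2 arrays of a pool were averaged, giving 10 pools. limma 3.58.1 in R 4.3.3 (lmFit, eBayes with a variance trend) fitted restriction and duration to 9520 probe sets, with Benjamini-Hochberg adjustment over all of them and a threshold of 0.05. Signals are normalized, and fold changes are powers of 2 of the log2 differences. The fits were tested on simulated data.

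Members, gene lists and substrate groups were chosen with earlier results of these data known. Named members are those past the threshold, those of smallest p in each substrate group or for the difference in slope, the member of highest signal in a group, genes whose probe sets disagree, and a fixed set. Those of that set that were no members include Slc13a5, Slc30a10, Slc43a1, Slc35d1 and Slc1a2. Slc13a3, Slc13a4, Slc22a17, Slc25a48 and Slc45a3 were named or singled out after their values were seen. Alternatives were other scalings, signal filters, a fit without the variance trend, RNA integrity ratios as covariates, 1 array per pool, and leaving out each pool.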

Additional observations from a re-analysis of the deposited data

Results flagged for a closer look

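For 13 members, all 4 restricted pools lay on one side of their control pool at 1 week and all 4 on the other side at 1 month. This is 8.5% of the members, beside 6.71% of all tested probe sets. The difference in direction was not tested in this form, and each set of 4 differences shares 1 control pool. The difference in slope between durations passed for none of these 13, with limma adjusted p from 0.903 to 0.998. In 10 of them the restricted pools were higher than their control at 1 week and lower at 1 month (76.9%, beside 53.7% of the 639 tested probe sets that changed side in this way). Values are the mean log2 difference from the control at 1 month minus that at 1 week.

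The acyl-CoA synthetases of the Slc27 family gave -1.90 for Slc27a4 and -1.71 for Slc27a3, whose control pool at 1 week was at 6.15, under the signal limit of 11.7, with 3 of its pools under it. Amino acid transporters gave -1.30 for Slc6a20a, -1.26 for Slc7a12 and -1.18 for Slc3a1, of which Slc7a12 had 2 and Slc3a1 3 pools under the limit. The value was -1.05 for Slc25a48 (1390556_at), an orphan mitochondrial carrier, and -1.04 for Slc10a3. The other member probe set of Slc25a48, 1389678_at, lay above its own control in 7 of 8 restricted pools. Its log2 differences at 1 month were 0.066, 0.086, -0.006 and 0.105 at 5 to 30% restriction. Slc30a3, a zinc transporter, gave -0.93, Slc14a2, a urea transporter, -0.75, and Slc8b1, the mitochondrial sodium-calcium exchanger, -0.39. In the other direction, the zinc exporter Slc30a1 gave 0.67, and the CMP-sialic acid transporter Slc35a1 gave 0.65 (1375254_at) and 0.42 (1386078_at), while its other member probe set, 1374662_at, was below its own control in all 8 restricted pools.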

How the results depend on the processing

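All 9 calls of the dose trend and all 13 of the step kept their sign under every alternative that tested them (8 of the 9 under the filter to the upper 40%). The alternatives reuse the same arrays, and the calls were chosen in the reported fit, so a kept sign is not separate evidence. Of 503 refits of 24 passing results, 335 kept the call and 168 lost it. In the dose trend (9 calls), 0 members passed with signals as deposited, 3 with median centring, 3 without the variance trend, 0 with the GAPDH ratio, 1 with the actin ratio, 3 to 9 with 1 array per pool and 1 to 13 without 1 pool. In the step (13), 6 passed without the variance trend, 8 to 12 with 1 array per pool and 2 to 26 without 1 pool. In the slope at 1 week (2), 0 passed with signals as deposited, without the variance trend or with either ratio, 1 without a filter or in the upper 40%, 1 to 4 with 1 array and 0 to 11 without 1 pool. The slope at 1 month (0) gave 0 to 1 with 1 array, the difference in slope (0) gave 0 to 1 without 1 pool, and duration (0) gave 1 with the actin ratio.

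Array numbers did not pair the pools (correlations of -0.05 to 0.12 over 45 pairs, 2 of them over 0.1). With single arrays and the array number as a replicate block, which counts the 2 arrays of a pool as separate samples, 22 members passed in the dose trend, 25 in the step, 15 and 5 in the slopes at 1 week and 1 month, 0 in their difference and 4 in duration.

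By size alone at 5% for 1 week (11), 0 members passed in the upper 40% and 5 with low signals raised. As deposited, 20, 32, 23, 25 and 24 passed at 10% and 20% for 1 week and 5, 10 and 20% for 1 month. In the upper 40%, 9 passed at 30% for 1 week and 4, 7, 6 and 7 at 5 to 30% for 1 month, where 7 passed at 5% with low signals raised.

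Sign reversed only in results that did not pass. Slc26a1's slope was 0.077 as deposited, 0.23 with GAPDH and 0.027 with actin. Slc29a1's was -0.012 with median centring, -0.12 with GAPDH and -0.15 with actin. Slc7a2's was 0.037 and Slc22a7's 0.030 as deposited, and with actin Slc25a30's was 0.43 and Slc4a2's -0.029. The step of Slc27a3 was -0.26 with low signals raised. Over the refits without 1 pool or with 1 array per pool, the slope ran from -0.26 to 0.85 for Slc27a4, -0.14 to 0.92 for Slc66a1, -0.14 to 0.19 for Slc26a1, -0.20 to 0.24 for Slc29a1, -0.44 to 0.23 for Slc7a2, -0.043 to 0.12 for Slc4a2, -0.043 to 0.16 for Slc50a1, -0.34 to 0.073 for Slc22a18, -0.096 to 0.45 for Slc20a1, -0.0068 to 0.20 for Slc25a13 and -0.073 to 0.25 for Slc25a25, and the step of Slc27a3 from -0.65 to 1.06. The causes were not tested. Dim members, such as Slc26a8, are measured with a wide spread between arrays.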
